A study of Homo sapiens with 4 samples.

Results

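Genes of 9 transcription factors of the intestinal epithelium were examined for binding of RAD21, a core subunit of the cohesin ring. They were *CDX1*, *CDX2*, *HNF4A*, *KLF5*, *GATA6*, *ELF3*, *EHF*, *ISX* and *ATOH1*. A RAD21 ChIP-seq peak was assigned to a gene when its summit lay in the gene body or within 50 kb of it, at GENCODE version 44 coordinates on GRCh38. This rule took 43 of the 56853 peaks of the list, or 0.0756%, and the windows of the 9 genes covered 1133731 bp. The series comprised 4 ChIP-seq libraries of HCT116 cells, a human colon carcinoma cell line, without replicates. They were RAD21 ChIP of untreated wild-type HCT116, RAD21 ChIP of untreated HCT116_RAD21_AID cells, RAD21 ChIP of HCT116_RAD21_AID cells given IAA and α-NAA at 500 μM each for 6 h, and an Input library of the auxin-treated cells. HCT116_RAD21_AID is a single clone in which both copies of RAD21 carry the mAID degron and which expresses the OsTIR1 ubiquitin ligase. Only the peaks called in untreated wild-type cells were used, and the remaining 3 libraries were not analysed here. Gene expression was not measured in these files, so the state of each gene in these cells is not given.

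Cohesin extrudes loops of chromatin and is held up by CTCF, a zinc finger protein with a long and directional binding site, so cohesin peaks commonly lie on CTCF sites. Loops are typically anchored at CTCF sites that face each other. Cohesin is also found, usually more weakly, at active promoters and enhancers. Among the factors studied, CDX1 and CDX2 are homeodomain proteins that set intestinal identity, and ISX is an intestine-specific homeodomain protein that represses genes of vitamin A uptake and conversion. HNF4A is a nuclear receptor of enterocytes and liver cells. KLF5 is a zinc finger factor of proliferating crypt cells, and GATA6 is a zinc finger factor of endoderm and crypt. ELF3 and EHF are epithelial factors of the ETS family, and ATOH1 is the basic helix-loop-helix factor that directs cells to the secretory lineage.

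The sequences at the summits that carry the main values are shown here because they show which of the strongest peaks lie on a CTCF-like sequence and which promoter peaks do not. Each is the plus strand of GRCh38 around a summit, printed 5′ to 3′, reaching 50 bases to either side of it, except for the *GATA6* promoter, where the 61 bases outside any UTR are given. In the first 3, capitals mark a 20-base match to a CTCF weight matrix. In the next 3, they mark the 12-base CTCF consensus. The last 3 had neither.
ISX upstream chr22:35024169-35024269: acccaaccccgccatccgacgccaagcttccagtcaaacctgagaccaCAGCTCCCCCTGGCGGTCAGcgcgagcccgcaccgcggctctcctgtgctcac
CDX2 downstream chr13:27953973-27954073: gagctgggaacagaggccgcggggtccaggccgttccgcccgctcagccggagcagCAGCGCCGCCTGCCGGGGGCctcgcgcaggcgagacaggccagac
HNF4A intron chr20:44388668-44388768: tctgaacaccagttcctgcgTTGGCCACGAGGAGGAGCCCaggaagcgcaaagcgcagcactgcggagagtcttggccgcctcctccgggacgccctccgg
CDX1 downstream chr5:150218269-150218369: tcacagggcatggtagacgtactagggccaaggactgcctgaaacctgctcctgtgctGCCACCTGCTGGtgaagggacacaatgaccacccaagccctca
EHF upstream chr11:34586385-34586485: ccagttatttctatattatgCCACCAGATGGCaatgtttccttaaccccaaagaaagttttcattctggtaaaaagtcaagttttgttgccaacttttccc
GATA6 downstream chr18:22219793-22219893: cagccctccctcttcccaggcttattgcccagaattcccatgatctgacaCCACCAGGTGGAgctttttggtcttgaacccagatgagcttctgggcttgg
KLF5 promoter chr13:73059618-73059718: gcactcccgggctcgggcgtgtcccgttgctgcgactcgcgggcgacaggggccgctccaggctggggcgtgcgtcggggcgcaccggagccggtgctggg
GATA6 promoter chr18:22169528-22169588: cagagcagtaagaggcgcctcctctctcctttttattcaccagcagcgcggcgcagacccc
CDX2 promoter chr13:27968700-27968800: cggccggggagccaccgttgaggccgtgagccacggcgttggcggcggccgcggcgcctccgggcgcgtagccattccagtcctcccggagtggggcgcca
The strongest peak of *ELF3* lay in a UTR, and only its CTCF site is given. This was CCACTAGAGGGC at chr1:202009714-202009725 on the plus strand, with 0 mismatches to the consensus.

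All 9 genes had peaks in their windows, and so did 96.3% of 20033 protein-coding genes. The number of peaks ran from 2 at *EHF* and *ATOH1* to 10 at *ELF3*, with a median of 4, the same as the median over all protein-coding genes. Per 100 kb of window, the median was 3.01 peaks for the 9 genes and 2.92 for all genes. The genes therefore stood near the middle of protein-coding genes by number of peaks, and they differed widely among themselves. Over the 9 windows together there were 3.79 peaks per 100 kb. The value over all bases of chromosomes 1 to 22, X and Y was 1.83. It is not a like comparison, because it takes in bases far from any gene. *ELF3* had 9.15 peaks per 100 kb, more than 96.5% of protein-coding genes, and *EHF* had 1.41, with 18.6% of genes lower. The other 7 genes lay between 1.96 at *ATOH1* and 5.09 at *CDX1*.

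**Figure D1:**
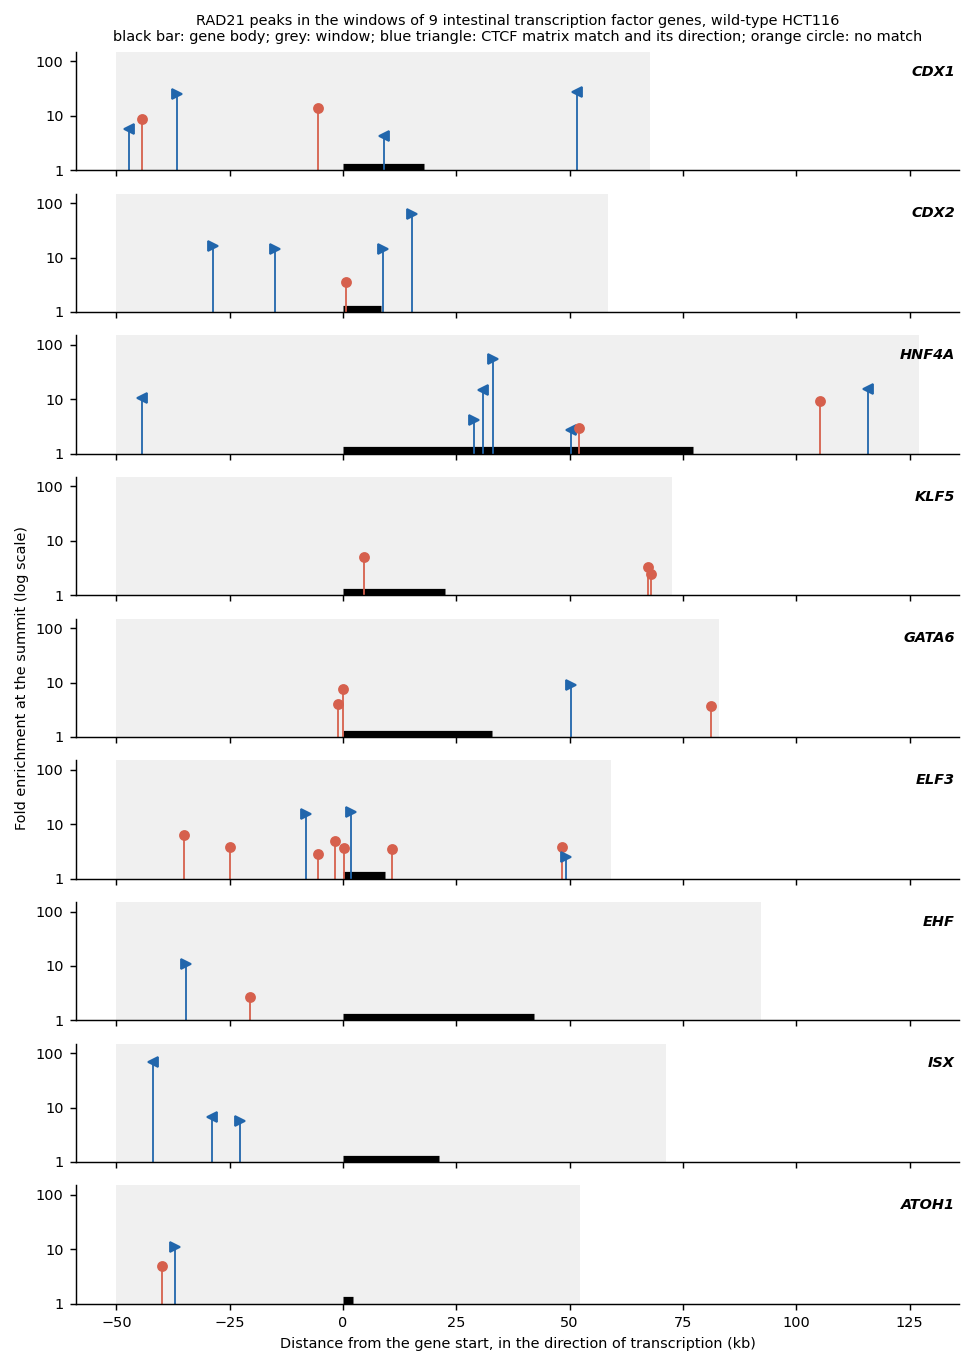
RAD21 peaks in the windows of the 9 genes, by distance from the gene start in the direction of transcription (kb) and fold enrichment at the summit (log scale). Blue triangles mark peaks with a CTCF weight matrix match and show its direction, orange circles mark peaks without one, black bars are gene bodies and grey areas are windows. The peaks of *ISX*, *EHF* and *ATOH1* all lie before the gene, whereas those of *ELF3* crowd around its start.

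Fold enrichment is the ratio of ChIP fragments to the local background at the summit, with 1 added to each. Over the 43 peaks its median was 6.31, with quartiles of 3.78 and 14.5, against a median of 5.58 and quartiles of 3.46 and 10.7 over all peaks. A fold enrichment of 10 or more was reached by 16 of the 43 peaks (37.2%), beside 27.2% of all peaks. By gene, 7 of 9 had such a peak, beside 71.2% of protein-coding genes, and the exceptions were *KLF5* and *GATA6*. The peaks rested on 16 to 483 fragments, with a median of 62.0, over backgrounds of 5.90 to 14.2 fragments. Intervals given with a fold enrichment are 95% exact Poisson intervals of the fragment number, cover counting error only and take the background as fixed.

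Ranked by their strongest peak, the genes fell into steps. *ISX* led with a fold enrichment of 70.1 (64.0 to 76.7), followed by *CDX2* with 63.3 (57.7 to 69.3) and *HNF4A* with 53.9 (48.7 to 59.6). The intervals of *ISX* and *CDX2* overlapped, as did those of *CDX2* and *HNF4A*, whereas those of *ISX* and *HNF4A* did not. These 3 peaks stood above 99.8%, 99.7% and 99.3% of all peaks in the list. *CDX1* came next with 27.9 (24.5 to 31.6), and *ELF3* with 17.1 (14.2 to 20.3), each apart from its neighbours. *ATOH1* with 11.2 (9.25 to 13.4), *EHF* with 10.8 (8.96 to 12.8) and *GATA6* with 8.91 (6.94 to 11.3) could not be ordered within counting error. *KLF5* was lowest with 5.07 (3.67 to 6.84), below the median of all peaks. The order depended on the flank of 50 kb. With 25 kb, the strongest peaks of *CDX1*, *ISX* and *EHF* were 14.1, 5.71 and 2.67 and *ATOH1* had none, and with 100 kb that of *ATOH1* was 21.8. The median of the 9 values at 50 kb was 17.1, and that of the strongest peak over all protein-coding genes was 16.8.

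**Figure D2:**
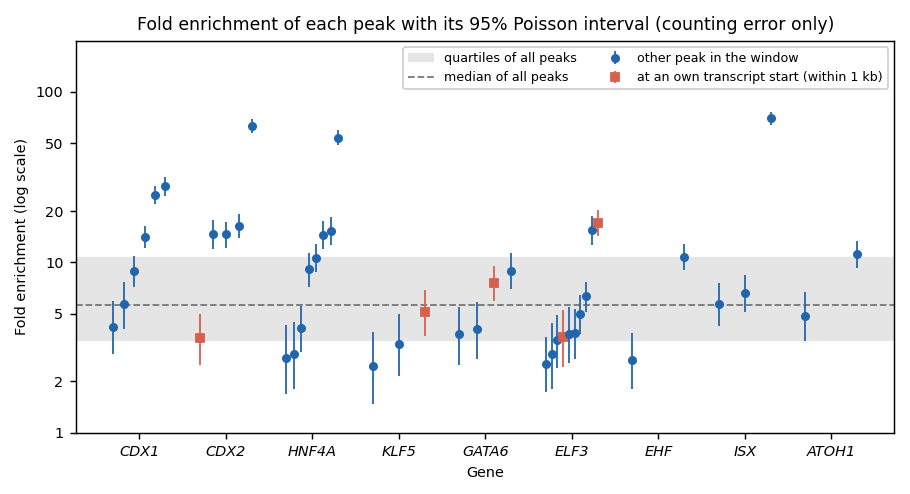
Fold enrichment (log scale) of each of the 43 peaks by gene, with 95% Poisson intervals. Orange squares mark peaks within 1 kb of a transcript start of the gene itself, blue circles mark the others, and the dashed line and grey band give the median of 5.58 and the quartiles of all peaks. The squares of *CDX2*, *KLF5* and *GATA6* lie within the band, and the strongest peaks of *ISX*, *CDX2* and *HNF4A* lie far above it.

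**Figure D3:**
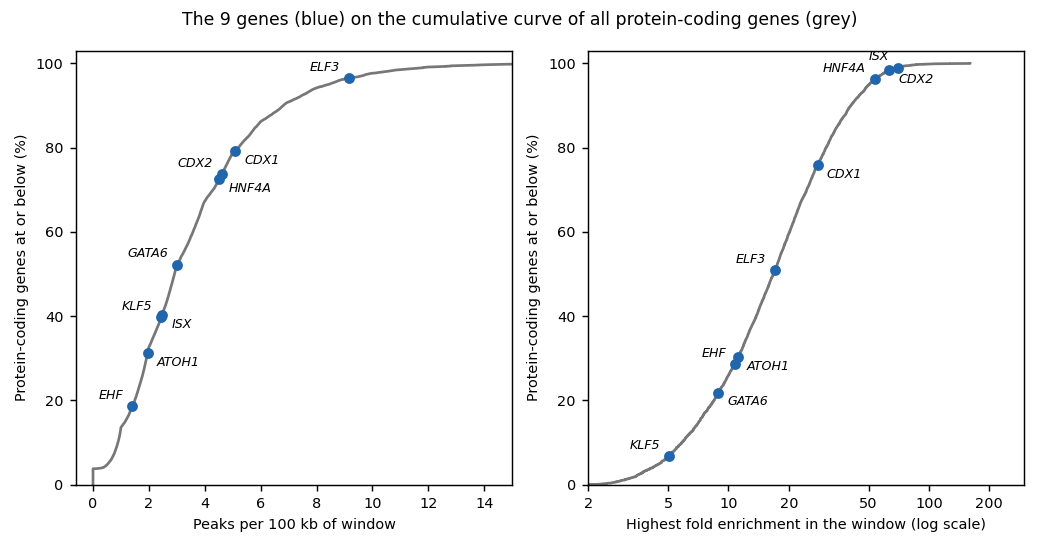
The 9 genes (blue) on the cumulative curves of all protein-coding genes (grey), for peaks per 100 kb of window and for the highest fold enrichment in the window (log scale, genes with a peak). *ELF3* is near the top of the first curve at 9.15 and near the middle of the second at 17.1, whereas *ISX* is below the middle of the first at 2.47 and near the top of the second at 70.1.

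The caudal homeobox genes both had their strongest peak beyond the gene end. *CDX2* (chr13:27960918-27969315, minus strand) had 5 peaks, of which 4 reached a fold enrichment of 10. The strongest, with 462 fragments, lay 15292 bp past the gene start, in the lncRNA gene LINC00543 and within 1 kb of its start. A second peak, of 14.6 (12.0 to 17.6), lay 478 bp past the end of *CDX2*. On the upstream side, peaks of 14.6 (12.2 to 17.3) and 16.4 (13.9 to 19.2) lay at 15107 and 28781 bp, the nearer one within URAD. The gene was thus bracketed closely, with strong peaks 23982 bp apart on its sides, and the only weak peak of the window was the one at its own start.

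*CDX1* (chr5:150166778-150184558, plus strand) had 6 peaks, of which 3 reached 10. The strongest, with 238 fragments, lay 51541 bp past the start, within SLC6A7. Its interval overlapped that of a peak of 24.8 (21.9 to 28.0) lying 36667 bp upstream, within PDGFRB, which encodes a receptor of platelet-derived growth factor. The peak nearest to the *CDX1* start was at 5428 bp upstream, outside any annotated gene, with 14.1 (12.2 to 16.3). This peak was 1033 bp wide, wider than 95.5% of all peaks, and its background of 12.3 fragments was 2.09 times the lowest background of the list. Intron 1 held the only peak in the gene body, of 4.19 (2.89 to 5.90), and a further peak of 8.88 (7.18 to 10.9) lay 138 bp from the PDGFRB start.

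*ISX* (chr22:35066136-35087387, plus strand) had 3 peaks, all upstream and none within an annotated gene. The strongest, with 483 fragments over the lowest background of 5.90, lay 41917 bp before the start and was 1109 bp wide. The others, of 6.61 (5.10 to 8.45) and 5.71 (4.24 to 7.54), lay at 28832 and 22681 bp. No peak lay in the gene or in the 50 kb after it, and the next one downstream, of 11.0, was 53693 bp from the gene end.

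*HNF4A* (chr20:44355699-44432845, plus strand) is transcribed from a distal and a proximal group of starts, which lay 45540 bp apart here. It had 8 peaks, 5 of them in the gene body, and 4 of fold enrichment 10 or more. The strongest, with 383 fragments, lay in intron 1 of the canonical transcript, between the groups of starts, 33019 bp after the first start and 12521 bp before the proximal group. A peak of 14.5 (11.9 to 17.5) lay at 30963 bp, close to it. Both also lay within the lncRNA gene HNF4A-AS1. Neither group of starts had a peak within 1 kb. The peak nearest to the distal group was at 28842 bp, with 4.11 (2.99 to 5.52), and within 1 kb of a start of HNF4A-AS1. The nearest to the proximal group was 4714 bp past it, in coding exon 2, with 2.75 (1.69 to 4.27). On the outside, the gene had peaks of 10.6 (8.73 to 12.8) at 44395 bp upstream, 102 bp from the FITM2 start, and of 15.3 (12.7 to 18.4) at 38777 bp past its end. The first of these was the peak just above a fold enrichment of 10, and another of *HNF4A*, of 9.09 (7.20 to 11.3), was the one just below it, so that counting error does not separate them.

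The zinc finger genes had no peak of fold enrichment 10 or more, and both had a peak at their start. *KLF5* (chr13:73054976-73077541, plus strand) had 3 peaks. The strongest, with 41 fragments, lay in intron 1, 663 bp past the canonical start, and was 1179 bp wide. The other peaks, of 3.33 (2.14 to 4.97) and 2.46 (1.47 to 3.91), lay 67301 and 67922 bp past the gene start, and none lay in the 50 kb before the gene. *GATA6* (chr18:22169589-22202528, plus strand) had 4 peaks and none in the gene body. Its promoter peak, of 7.56 (5.93 to 9.51) with 71 fragments, lay 11 bp before the start, shared with the antisense gene GATA6-AS1, and was 1310 bp wide. A peak of 4.06 (2.72 to 5.84) lay 1119 bp before the start, and the strongest one lay 17315 bp past the gene end, with 67 fragments. The intervals of the promoter peak and the strongest peak overlapped.

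The ETS family genes differed most in number. *ELF3* (chr1:202007945-202017183, plus strand) had 10 peaks, of which 2 reached 10. The strongest, with 126 fragments, lay 853 bp before the canonical start and within 1 kb of a start of ELF3-AS1, and at 2116 bp it was wider than 99.7% of all peaks. Another, of 15.4 (12.6 to 18.6), lay 8112 bp upstream of the gene, within RNPEP. Their intervals overlapped. The other 8 peaks had fold enrichments of 2.54 to 6.31, and one of them, of 3.62 (2.43 to 5.21), lay 301 bp past the first start of *ELF3*. *EHF* (chr11:34621093-34663288, plus strand) had 2 peaks, both upstream. The stronger, with 122 fragments, lay at 34658 bp, and the weaker, of 2.67 (1.79 to 3.85), at 20469 bp. Neither the gene body nor the 50 kb after it held a peak, and the next one downstream was 155489 bp from the gene end.

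*ATOH1* (chr4:93828753-93830964, plus strand), a short gene, also had 2 peaks on the upstream side only. They lay at 36974 and 39864 bp, with fold enrichments of 11.2 and 4.85 (3.44 to 6.66). The next peak downstream was 66811 bp from the gene end. For *EHF*, *ISX* and *ATOH1*, then, no peak touched the gene or its downstream flank. Over all 43 peaks, 21 lay upstream, 10 in the gene body and 12 downstream, and 28 had a start of the member as the nearest protein-coding start. The same counts over all protein-coding genes are not given here, so no preference for a side is drawn from them.

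A peak within 1 kb of an own transcript start was found at 4 of the 9 genes, *CDX2*, *KLF5*, *GATA6* and *ELF3*, beside 43.8% of all protein-coding genes. *ELF3* had 2 of these 5 peaks. At *CDX2* the promoter peak lay 565 bp past the start, in coding exon 1, with 3.57 (2.49 to 4.97) and 33 fragments. The median fold enrichment of the 5 peaks was 5.07, beside 3.91 over the 10220 peaks at protein-coding promoters in the list. Their median width was 1179 bp, beside 480 bp. The widest were those of *ELF3*, *GATA6* and *KLF5*, at 2116, 1310 and 1179 bp, and the narrowest was the other *ELF3* peak, of 392 bp. In the RefSeq promoter sequences (GRCh38.p14, 250 bases before to 50 after a start), 8 of the 9 genes had an entry. *CDX1*, which has no promoter peak, had none, so its CpG content is not given. The observed to expected ratio of CpG was 0.978 at the canonical *KLF5* start, 0.844 at *CDX2* and 0.824 at *GATA6*, against a median of 0.579 over 35116 promoters. At the other RefSeq start of *KLF5*, 4692 bp from the nearest peak, it was 0.331. It was 0.269 at *ELF3*, which has a promoter peak, and 0.971 at *ATOH1*, which has none. The other genes with an entry and without a promoter peak were below the median. These were *HNF4A* with 0.409 and 0.364 at its distal and proximal starts, *EHF* with 0.410 and 0.171 at its RefSeq starts, and *ISX* with the lowest value, 0.0475.

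The CTCF consensus, with at most 1 mismatch within 50 bp of the summit, was found in 14 of the 43 peaks, or 32.6% (Wilson 95% interval 20.5 to 47.5), beside 38.5% of all peaks. In control windows 5 kb to either side of all peaks it was found in 0.763%. It was exact in 4 peaks, the strongest ones of *CDX1*, *ELF3* and *EHF* and the nearer upstream peak of *CDX2*. The highest peaks of *ISX*, *CDX2* and *HNF4A* had 2, 2 and 3 mismatches and so did not count. They did match a weight matrix of 20 bases that was learned from strong peaks outside the 9 windows and whose threshold 1% of control windows pass. The matrix found 23 of the 43 peaks (53.5%), beside 52.5% of all peaks.

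Matches were found mainly in the strong peaks. Of the peaks of fold enrichment 10 or more, 15 of 16 had a matrix match (93.8%, 71.7 to 98.9), beside 83.3% of all such peaks. From 5 to under 10, the matrix matched 4 of 9 (44.4%, 18.9 to 73.3), beside 65.9%. Under a fold enrichment of 5, it matched 4 of 18 (22.2%), beside 25.5%. The consensus was found in 8 of the 16 strong peaks (50.0%, 28.0 to 72.0), beside 62.4% of all such peaks. Both intervals include the share over all strong peaks, so with 16 peaks neither search places the strong peaks here above or below them. The one strong peak without a matrix match was that of *CDX1* at 5428 bp upstream. Of the 5 promoter peaks, the strongest peak of *ELF3* alone had a match, with either search. Over all peaks, the consensus was found in 20.6% of those at protein-coding promoters and in 42.4% of the others. The Wilson interval for 1 match in 5 peaks, 3.62 to 62.4%, includes both shares. The promoter peaks here are therefore not set apart from promoter peaks in general. None of the 3 peaks of *KLF5* had a matrix match, and of the 4 peaks of *GATA6* only the strongest did. All 4 strong peaks of *CDX2* had a matrix match, and all 4 matches were on the minus strand, so that they pointed the same way.

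The nearest peaks of fold enrichment 10 or more outside the gene body, at any distance, differed widely in how closely they bracketed a gene. They lay 24.0 kb apart around *CDX2*, where 1.20% of protein-coding genes had them closer, and 57.0 kb apart around *CDX1*. Around *ISX*, *ELF3* and *HNF4A* they were 117, 119 and 160 kb apart. *EHF* with 305 kb, *GATA6* with 607 kb, *ATOH1* with 615 kb and *KLF5* with 868 kb lay in longer intervals than the median of 241 kb over 19951 genes. These distances depend on the cutoff of 10, and no other cutoff was tried. They also include the gene body, of 8398 bp at *CDX2* and a median of 27471 bp over all protein-coding genes. A long gene cannot have a short distance, so the 1.20% at *CDX2* depends in part on gene length. The counting intervals of the end peaks upstream of *HNF4A*, *GATA6* and *EHF* and downstream of *ISX* and *ATOH1* include 10. So does that of the *GATA6* peak of 8.91 (6.94 to 11.3), 17315 bp past the gene, which was not counted. Around *KLF5* the strong peaks were 214910 bp upstream, with 13.9, and 631014 bp downstream, with 25.1. Both sides had a matrix match at 7 of the 9 genes, beside 70.0% of protein-coding genes. At *KLF5*, *ELF3* and *EHF* the matches faced each other across the gene, which is 3 of 7, beside 28.0% of genes with matches on both sides, where neighbouring genes can share the same peaks. *CDX2*, *HNF4A*, *GATA6* and *ATOH1* had matches on one strand on both sides.

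Short motifs of the factor families were found at these summits at shares near those of all peaks, or not at all. Within 100 bp of the summit and on both strands, the GATA motif AGATAA was found in 3 of 43 peaks (6.98%), beside 6.45% of all peaks. One of these was the *ELF3* peak 301 bp past its first start, and the others were in *HNF4A*. The E-box CAGCTG was found in 7 (16.3%), beside 13.7%, and the KLF and SP motif GGGCGG in 5 (11.6%), beside 15.2%. The peaks with GGGCGG were the highest ones of *CDX2*, *ISX* and *KLF5* and weak ones of *ELF3* (2.54) and *KLF5* (2.46). The HNF4 motif CAAAGTCCA, the CDX motif TTTATGG, the ETS motif CCGGAAGT and the AP-1 motif TGACTCA were found in 0 of 43, beside 0.297%, 1.97%, 0.485% and 3.57% of all peaks. At such low shares over all peaks, 0 of 43 is not a result about the 9 genes.

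The windows of 24 other transcription factor genes of the intestine gave like counts. A peak was present at 23 of them, a peak of 10 or more at 15 (62.5%) and a promoter peak at 11 (45.8%), and the median of their strongest peaks was 17.5. The highest were PDX1, a homeodomain factor of pancreas and duodenum, with 63.3, ID1, an inhibitor of helix-loop-helix factors, with 53.2, and ASCL2, a stem cell factor, with 49.3. The peak of PDX1 was the same as the strongest of *CDX2*, since it lies between these genes. NEUROG3, a factor of enteroendocrine cells, had no peak. Of 16 genes of intestinal epithelial function, 15 had a peak and 14 had one of 10 or more (87.5%, beside 71.2% of protein-coding genes). A promoter peak was present at 3 of these genes (18.8%, beside 43.8%). With 16 genes, no conclusion is drawn from these shares. Their highest were MUC2 with 51.8 and MUC13 with 40.7, which encode mucins, and the adhesion molecule gene EPCAM with 34.5, and the sucrase-isomaltase gene SI had none.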

How the data were processed

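RAD21 was measured by ChIP-seq in HCT116 cells, and the peak list of the untreated wild-type library was used. Per the methods and the submitters' processing notes, the authors trimmed paired reads with Trimmomatic 0.39, aligned them to GRCh38 with Bowtie2 2.5.3, removed duplicates with Picard and called peaks with MACS2 2.2.9.1 against Input at a q-value of 0.05, with an effective genome size of 2805636231. Which Input served is not given in the sources used here. The only Input of the series came from auxin-treated HCT116_RAD21_AID cells. If it served, the backgrounds and fold enrichments given here rest in part on cells other than wild type. The deposited list holds a fold enrichment (a ratio to the local background), −log10 p-values and −log10 q-values, a score and a summit offset. The authors' score was left out. Calling was done per library and not on pooled reads. The library has no replicate, so no test was made.

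The fragment number and background at each summit were recovered from fold enrichment and p-value, which gave whole numbers (within 0.05 of a step) for all but 14 of 56853 peaks and for all 43 peaks described. The list holds no read totals, so the total depth of the library is not given. Precision is set by the 16 to 483 fragments per peak and, as no molecular identifiers are described, the intervals cover counting error only. The lowest background was 5.90 fragments.

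Windows, starts and gene parts came from GENCODE version 44. The CTCF consensus (12 bases, named CTCF in the text) was searched for within 50 bp of summits. The weight matrix of 20 bases was learned from those of the 5000 strongest peaks outside the 9 windows with a consensus match (3337), so the shares over all peaks include its training peaks. Its score threshold was 10.8. Recovery, motif searches and window counts were tested on simulated data. The genes and the other gene lists were chosen with earlier results of these data known. The text names, for every gene, its strongest peak, its promoter peaks, the peak nearest to a start, and the outermost strong peaks, and for the other lists the 3 genes with the highest peak. The nearest strong peaks at any distance and the capitals on matrix matches were added after values were seen. Alternatives were stricter q-values, other flanks, whole peak intervals, low-background peaks, other promoter limits, ranking by q-value and other CTCF searches. The sequence and gene annotation at the *ATOH1* peaks are not reported here. The tools were Python 3.11.15 with pysam 0.24.0, numpy 2.4.6, scipy 1.17.1, pandas 2.3.3 and matplotlib 3.10.9, and samtools 1.23.1.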

Additional observations from a re-analysis of the deposited data

How the results depend on the processing

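With a flank of 25 kb in place of 50 kb, the 9 windows held 23 peaks, of which 8 had a fold enrichment of 10 or more, and with 100 kb they held 65 and 22. The CTCF consensus was found in 4 peaks with no mismatch allowed, the weight matrix in 23, and the matrix within 100 bp, chosen after seeing the data, in 24. The other alternatives left the number of peaks at 36 to 43, of strong peaks at 15 to 16 and of genes with a promoter peak at 3 to 4. The strongest fold enrichment of a gene stayed within its counting interval in 58 of 62 values under the alternatives. Much of this was fixed in advance, since every strongest peak passed all the stricter q-values. Whole peak intervals also gave the same 43 peaks. Only the change of flank moved a strongest fold enrichment out of its counting interval. The 4 values that moved were *CDX1* (14.1), *EHF* (2.67) and *ISX* (5.71) at 25 kb and *ATOH1* (21.8) at 100 kb, and *ATOH1* had 0 peaks at 25 kb. Of 72 counts of peaks per gene, 13 moved. Leaving out peaks within 1 kb of a start of another gene lowered the density over the 9 windows from 3.79 to 2.91 peaks per 100 kb. The strand of the match in the *CDX1* peak 36667 bp upstream differed between consensus (minus) and matrix (plus). No paired analysis was possible because the peak list comes from 1 library. With 1 library and no replicates, variation between cultures is not covered by any interval, and peaks under a fold enrichment of 5 rest on few fragments.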
